A study of Mus musculus with 40 samples.

Results

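The contrast described here set the change that dietary conjugated linoleic acid (CLA, a group of isomers of linoleic acid) made in mouse mammary gland RNA against the change that estrogen made, each agent measured against controls of its own time point. It used all 20 libraries of the earlier sampling times, of 40 in the series: 5 controls and 5 estrogen-treated mice at 60 h, and 5 controls and 5 CLA-fed mice at 108 h. For every gene the estrogen effect (Estrogen_60h minus Control_60h) was subtracted from the CLA effect (CLA_108h minus Control_108h), so that a positive difference means a more positive response to CLA. Genes were then grouped by whether they responded alike, oppositely or to 1 agent only.

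All mice, controls included, were of the Balb/cJ strain and had lost their ovaries at 21 days of age, and treatment started after 7 days of recovery. Controls ate a purified diet based on AIN 93G. CLA mice ate that diet with CLA, which the labels put at 2.7% without saying whether of the diet or of its fat, and estrogen mice ate the control diet and drank water with 200 nM estrogen. The tissue came from the number 4 inguinal gland, between the teat and the excised lymph node, so each library mixed fat, stroma, vessels, immune cells and a small epithelial tree. In such bulk tissue fewer cells of a type and less of its RNA per cell cannot be told apart. The agents were never sampled at the same hour, so agent and hours of treatment cannot be told apart in any difference given below. The series' design text calls the 5 mice of a group biological replicates, so p-values measure the spread between animals.

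Estrogen acts in the mammary gland through its receptor in luminal epithelial and stromal cells, where it switches on genes such as the progesterone receptor and the growth factor amphiregulin and drives the ducts to elongate. Dietary CLA is known in mice for the loss of stored fat that its trans-10, cis-12 isomer brings about, with entry of macrophages into fat tissue, and has been studied as a stimulus of duct growth that does not need the ovary. Dividing cells of any type raise the RNA of a common set of genes for DNA replication and mitosis, whereas direct targets of the estrogen receptor, lipid synthesis genes and macrophage genes each belong to few cell types.

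Libraries held 25976800 to 40026800 counts, with 21726 to 22621 genes detected. Mitochondrial genes took 8.88% to 10.6% of counts in the 60 h controls, 6.16% to 8.31% with estrogen, 7.25% to 8.64% in the 108 h controls and 4.76% to 6.73% with CLA, so neither treated group overlapped its controls. Several libraries stood apart. The mean log2 CPM (read counts scaled to library size with TMM factors) of 20 skin and hair genes was 4.55, 6.12 and 1.92 in controls 1, 2 and 5 at 108 h and 4.71 in estrogen replicate 5, against at most 0.37 in the other 16 libraries, and no CLA library was among those 4. Luminal epithelial genes averaged -0.02 to 2.81 log2 CPM in the 60 h controls, 3.27 to 4.26 with estrogen, 2.56 to 3.69 in the 108 h controls and 0.83 to 3.51 with CLA, the lowest of these being CLA replicate 3. Control replicate 2 at 60 h had the highest interferon-response mean, 6.78 log2 CPM. The 2 control groups themselves differed in 576 genes (3.34% of those tested), 329 of them (1.91%) higher at 108 h. All 5 estrogen mice carried title numbers from a run that held no control, so estrogen and that run cannot be told apart, whereas CLA mice and their controls shared 2 runs of numbers. Without the 4 libraries high in skin and hair genes only 2 controls at 108 h remained, replicates 3 and 4, both from the same run of numbers. In fits without those 4, the skin signal, the run and the smaller number of controls cannot be told apart in the CLA effect.

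Of 47729 genes in the table, 17248 passed the filter on low counts and were tested. CLA changed 8261 of them (47.9%; 4293 higher, 24.9%, and 3968 lower, 23.0%) and estrogen changed 1119 (6.49%; 702 higher, 4.07%, and 417 lower, 2.42%) by edgeR's quasi-likelihood test at a Benjamini-Hochberg adjusted p under 0.05. Within the 2 runs of title numbers that held CLA mice and their controls, CLA changed 6049 and 5255 genes, and 8218 of the 8261 had the same sign in both runs. The 8261 were called from these same libraries, so that agreement in sign is in part built in. By the same test the CLA effect differed between the runs in 0 genes at an adjusted p under 0.05. At an unadjusted p under 0.05 it differed in 1534. The median absolute log2 fold change was 0.30 for CLA and 0.13 for estrogen, with a median standard error of 0.12 for each. The 2 effects differed in 5532 genes (32.1%), of which 2964 (17.2%) had the more positive response to CLA and 2568 (14.9%) the more positive response to estrogen. These splits moved with the scaling. With upper-quartile in place of TMM scaling the higher and lower calls were 2126 and 3544 for the difference, 3592 and 4907 for CLA and 920 and 288 for estrogen. RLE scaling gave 4042 and 4297 for CLA, so lower CLA calls outnumbered higher ones under both.

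Genes called for both agents numbered 591, which is 7.15% of the CLA calls and 52.8% of the estrogen calls. In 500 of them (2.90% of genes tested) both agents moved the gene the same way, 300 up (1.74%) and 200 down (1.16%), and in 91 (0.528%) they moved it in opposite ways, 41 (0.238%) higher with CLA and 50 (0.290%) lower with CLA. With upper-quartile scaling these opposite counts were 24 and 100. The same sign thus held for 84.6% of genes called for both and for 56.0% of all genes tested. Of the 702 genes that rose with estrogen, 42.7% also rose with CLA and 7.12% fell with it. Of the 417 that fell with estrogen, 48.0% also fell with CLA and 9.83% rose. Across all genes the 2 effects had a Pearson correlation of -0.21 and a Spearman correlation of 0.10. Genes are not independent replicates, and without the 4 libraries high in skin and hair genes these became 0.05 and 0.15.

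A gene was assigned to 1 agent only if that agent's effect was called, the other's was not, and the difference between the effects was itself called. CLA alone met this in 4580 genes (26.6%; 2567 higher, 14.9%, and 2013 lower, 11.7%) and estrogen alone in 304 (1.76%; 235 higher, 1.36%, and 69 lower, 0.400%). With upper-quartile scaling the higher and lower counts were 1868 and 2815 for CLA only and 293 and 35 for estrogen only. The difference was not called for another 3090 genes with a CLA call (17.9%) and 224 with an estrogen call (1.30%), and these were assigned to neither agent. An uncalled effect of the other agent was not always a small one. Its 95% confidence interval lay within 0.5 on the log2 scale for 1913 of the 2567 genes higher with CLA only and for 38 of the 235 higher with estrogen only.

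**Figure D1:**
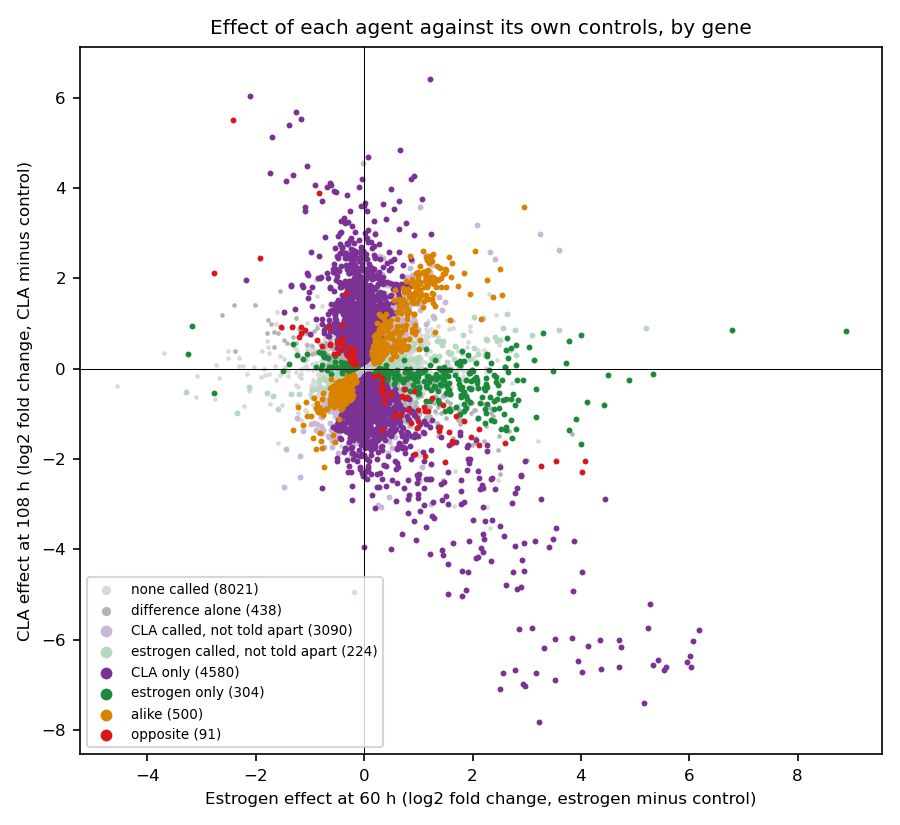
Each point is a gene, placed by its log2 fold change with estrogen at 60 h (horizontal axis) and with CLA at 108 h (vertical axis), and coloured by the class that the calls gave it. The 500 genes called alike fall where both changes have the same sign, the 91 called opposite where the signs differ, and most genes called for 1 agent only spread along that agent's axis. The separate CLA-only points at the lower right include the hair keratin genes, such as Krt35 at 5.17 and -7.40.

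Of the gene lists, those of cell division had most members called alike for both agents. All 28 mitosis genes rose with CLA and 25 of them also rose with estrogen, with median log2 fold changes of 1.98 and 1.13 against -0.01 and 0.00 over all genes tested, of which 24.9% rose with CLA and 4.07% with estrogen. All 32 DNA replication genes rose with CLA and 16 of them with estrogen, with medians of 1.25 and 0.55. The response to CLA was the larger in every member whose difference was called, which was 10 of 28 mitosis genes and 14 of 32 replication genes. Over all genes tested 17.2% had a called difference with the more positive response to CLA. With upper-quartile scaling the 2 counts were 6 and 10. The estrogen counts were fragile: they were 10 mitosis and 8 replication genes without control replicate 2 at 60 h, and 11 and 7 without the 4 libraries high in skin and hair genes, with medians of 1.08 to 1.10 and 0.55 to 0.56.

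Mki67 encodes the Ki-67 protein that marks cycling cells and lies on chromosome 7, 135689784 to 135716450 (RefSeq annotation of GRCm38.p6, as for the positions below). Its level was 31.8, 18.7, 20.6, 18.2 and 20.6 CPM in the 60 h controls and 62.1, 40.9, 69.6, 18 and 54.3 CPM with estrogen. In the 108 h controls it was 21.3, 68.1, 34.9, 34.0 and 27.8 CPM, and with CLA 121, 142, 158, 148 and 96.5 CPM. Every CLA library lay above every control of its time, whereas estrogen replicate 4 lay below all 60 h controls. The log2 fold change was 1.84 ± 0.33 (SE, n = 5 mice a group) with CLA and 1.15 ± 0.33 with estrogen, with adjusted p-values of 0.000168 and 0.0443 by edgeR's quasi-likelihood test. The difference of 0.68 had a 95% confidence interval of -0.27 to 1.64 and was not called (adjusted p = 0.268). The estrogen call was lost in 14 of the 20 fits that left out a single library, at an adjusted p of up to 0.109.

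Of the 5 genes with the largest shared rise, taken by the smaller of the 2 changes among genes of at least 1 log2 CPM on average, 4 act on DNA or chromosomes. Gcnt4 and Tk1 fell just under that level, at 0.97 and 0.99 log2 CPM, and rose by 1.98 and 2.47 with CLA and by 2.27 and 1.57 with estrogen. Exo1, an exonuclease of DNA repair, rose by a log2 fold change of 1.82 ± 0.31 with CLA and 1.73 ± 0.32 with estrogen. Ska1, Cenph and Kntc1, which act at the kinetochore where chromosomes attach to the spindle, rose by 2.04, 2.20 and 2.01 with CLA and by 1.61, 1.5 and 1.42 with estrogen. For these 4 genes the difference between the agents was not called. For Aurka, a spindle kinase, and Birc5, which encodes survivin, it was: they rose by 1.74 and 2.60 with CLA and by 0.57 and 1.08 with estrogen, and the differences of 1.18 and 1.52 had adjusted p-values of 0.00102 and 0.00848.

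Cited1, a coactivator of the estrogen receptor that is itself expressed in mammary epithelium (chromosome X, 102247378 to 102252181), was the other of these 5 genes. Its level was 7.75, 5.09, 1.28, 3.58 and 2.38 CPM in the 60 h controls and 18.2, 15.7, 36.6, 10.5 and 23.1 CPM with estrogen, with no overlap. It was 4.28, 8.52, 5.99, 16.3 and 13.4 CPM in the 108 h controls and 35.1, 44.1, 10.6, 28.4 and 27.3 CPM with CLA, where replicate 3, the CLA library lowest in luminal genes, overlapped the controls. The log2 fold change was 1.58 ± 0.48 with CLA and 2.37 ± 0.50 with estrogen (adjusted p 0.0108 and 0.0140), and the CLA call was lost without the libraries high in skin and hair genes. Luminal marker levels moved with estrogen as well, and their part in this rise was not tested. Ccnd1, the gene of the G1 cyclin D1 and a known estrogen target, was also called alike at 0.51 and 0.65.

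Genes that fell with both agents changed less, with median log2 fold changes of -0.48 for CLA and -0.35 for estrogen over the 200 genes. Adck3, which encodes a mitochondrial kinase-like protein needed to make coenzyme Q (chromosome 1, 180165238 to 180196020), was 1 of the 5 genes that the naming rule gave for this class. It measured 407, 362, 597, 493 and 496 CPM in the 60 h controls and 161, 308, 268, 283 and 260 CPM with estrogen. In the 108 h controls it measured 385, 287, 336, 293 and 338 CPM, and with CLA 95.4, 82.8, 91.7, 87.6 and 123 CPM. The groups did not overlap for either agent. The fall was -1.77 ± 0.16 with CLA and -0.88 ± 0.16 with estrogen (adjusted p 6.86e-08 and 0.00639), and the CLA change was the larger by -0.89 ± 0.22 (adjusted p = 0.00515).

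Of 24 fatty acid oxidation genes, 16 fell with CLA and 10 with estrogen, and those 10 fell with both; among them were the acyl-CoA dehydrogenase genes Acadl, Acadm and Acadvl and the carnitine transferase gene Cpt1b. List medians were -0.44 and -0.30, and over all genes tested 23.0% fell with CLA, 2.42% with estrogen and 1.16% with both. The estrogen count was 2 without the libraries high in skin and hair genes, 4 without control replicate 2 at 60 h, and 1 without CLA replicate 3 and control replicate 3 at 60 h, although the median stayed between -0.27 and -0.29. The share of mitochondrial counts was also lower with each agent, and its part in these falls was not tested. Cpt1a, another carnitine transferase gene, went the other way with CLA only, at 1.24 ± 0.14 against 0.17 ± 0.14 with estrogen. Igf1, the growth factor that estrogen is known to work with in duct growth, fell by 0.39 and 0.33 on the log2 scale, and its estrogen call (adjusted p = 0.0491) was lost in 18 of 20 fits without a single library. Cyp11a1, which makes pregnenolone from cholesterol, fell by 0.85 and 0.84, and Lpar4, a receptor for lysophosphatidic acid, by 0.96 and 0.83.

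Among the 41 opposite responses with CLA higher were Mmp12, Itgax, Gadd45a and Mmp13. In 9 of the 41 genes the controls were called lower at 108 h than at 60 h. Over all genes tested 3.34% had a called difference between the controls in either direction, and 1.91% were called higher at 108 h. The same control libraries set both effects. Choosing genes by these opposite calls therefore favours high controls at 60 h and low ones at 108 h, so an excess is in part built in. The part of the controls in the opposite calls was not tested. Mmp12, the macrophage elastase (chromosome 9, 7344397 to 7360461), measured 8.24, 8.06, 1.34, 2.47 and 12.8 CPM in the 60 h controls and 1.44, 1.72, 1.11, 0.882 and 0.993 CPM with estrogen. It measured 4.13, 2.36, 1.5, 16.3 and 2.41 CPM in the 108 h controls and 237, 239, 242, 372 and 148 CPM with CLA. All CLA libraries stood far above all others, while estrogen libraries 1 and 2 overlapped control replicate 3. The changes were 5.51 ± 0.64 with CLA and -2.43 ± 0.71 with estrogen (adjusted p 2.45e-06 and 0.0495), and the difference was 7.93 ± 0.93 (adjusted p = 1.02e-05). The estrogen call was lost in 16 of 20 fits without a single library. Without the libraries high in skin and hair genes that call was lost too, at -2.37, and Mmp12 was called for CLA only. Itgax, the CD11c integrin of dendritic cells and of macrophages in fat (chromosome 7, 128129526 to 128150657), rose by 3.90 ± 0.22 with CLA, from 3.68 to 5.47 CPM in controls to 54.0 to 84.1 CPM. With estrogen it fell by 0.83 ± 0.22 on the log2 scale, from 2.59 to 6.05 CPM in controls to 1.74 to 3.01 CPM, an overlapping pair (adjusted p = 0.0331).

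Gadd45a, a growth arrest and stress gene (chromosome 6, 67035096 to 67037407), changed less but kept its opposite calls in all 20 fits without a library and without the libraries high in skin and hair genes. Its level was 23.1, 9.05, 8.69, 17.5 and 15.4 CPM in the 60 h controls and 6.21, 6.05, 4.80, 9.23 and 6.68 CPM with estrogen. It was 11.6, 7.73, 7.98, 7.74 and 6.33 CPM in the 108 h controls and 14.1, 14.5, 18.8, 13.5 and 18.2 CPM with CLA. CLA libraries lay above all their controls, and estrogen libraries below theirs except for replicate 4. The changes were 0.93 ± 0.24 and -1.16 ± 0.24 (adjusted p 0.00334 and 0.0131). Its controls spanned 8.69 to 23.1 CPM at 60 h and 6.33 to 11.6 CPM at 108 h, and their part in the opposite calls was not tested. Fbln7, a secreted matrix protein gene, was called opposite at 0.92 ± 0.16 and -0.64 ± 0.16, Postn, which encodes the matrix protein periostin, at 0.68 ± 0.12 and -0.40 ± 0.12, Ncr1, a receptor of natural killer cells, at 0.70 ± 0.28 and -1.19 ± 0.29, and Il10, an anti-inflammatory cytokine, at 2.13 ± 0.48 and -2.77 ± 0.70. With the runs of title numbers as a term the CLA change of Ncr1, 0.72, was no longer called.

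Mmp13, a collagenase (chromosome 9, 7272514 to 7283333), went the same way as Mmp12 at lower levels. It measured 0.977, 3.26, 0.684, 1.08 and 0.879 CPM in the 60 h controls, 0.334, 0.440, 0.143, 0.441 and 0.445 CPM with estrogen, 0.743, 0.128, 0.944, 0.598 and 0.900 CPM in the 108 h controls, and 3.42, 3.54, 4.56, 3.83 and 2.75 CPM with CLA. Neither pair of groups overlapped, and the changes were 2.45 ± 0.43 and -1.92 ± 0.46 (adjusted p 0.000113 and 0.0215). Its promoter is shown because AP-1 sites are known to control collagenase genes, AP-1 being the dimer of Fos and Jun proteins, and because Fosl1, Jund and Fos themselves rose with CLA only, at 2.0 ± 0.17, 0.66 ± 0.07 and 2.58. The 150 bases before the start of Mmp13 on the plus strand (RefSeq, GRCm38.p6, chr9:7272364-7272513) hold the letters TGANTCA of that site, set in capitals, with the first base 35 bases before the start.
Mmp13: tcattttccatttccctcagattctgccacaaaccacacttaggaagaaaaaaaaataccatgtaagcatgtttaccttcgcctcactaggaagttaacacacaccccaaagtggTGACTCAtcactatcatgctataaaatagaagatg
Over 32851 RefSeq promoters of this length, 4.24% hold these letters on either strand. The match describes the sequence and not a binding event, and a part of AP-1 in the change of Mmp13 was not tested. Fos was chosen after its values were seen.

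Among the 50 opposite responses with CLA lower, and of those with the largest pair of changes, Prom2, Wnt4, Dsc2 and Cited4 are expressed in epithelia, and their CLA change rested on the libraries high in skin and hair genes. In 18 of the 50 genes the controls were called higher at 108 h than at 60 h, beside 1.91% of all genes tested. The same control libraries set both effects, so this class favours low controls at 60 h and high ones at 108 h. The excess over 1.91% is therefore in part built in. Wnt4, the Wnt ligand that progesterone induces in the gland (chromosome 4, 137277635 to 137299501), measured 2.17, 0.632, 0.208, 0.452 and 0.911 CPM in the 60 h controls and 9.92, 8.39, 15, 5.07 and 12.8 CPM with estrogen, with no overlap. It measured 4.55, 32.9, 1.20, 4.44 and 6.37 CPM in the 108 h controls and 1.85, 3.65, 0.375, 2.92 and 3.31 CPM with CLA, which overlapped. Control replicate 2, the library highest in skin and hair genes, held the value of 32.9. The changes were -2.04 ± 0.75 with CLA and 3.54 ± 0.81 with estrogen (adjusted p 0.0319 and 0.0204), and the 108 h controls themselves were above the 60 h controls by 3.49 ± 0.81. Without the 4 libraries high in skin and hair genes the CLA change was -0.25 and not called.

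Prom2, a membrane protein of epithelial surfaces (chromosome 2, 127526953 to 127541417), had nearly the same profile. It rose by 4.07 ± 0.79 with estrogen, from 0.366 to 1.83 CPM in controls to 4.44 to 21.8 CPM. With CLA it changed by -2.05 ± 0.72 (adjusted p = 0.0251), and by -0.20 without those 4 libraries, where the difference between the agents was still called at -4.32. Dsc2, a desmosome cadherin, was called at -1.64 with CLA and 2.60 with estrogen. Cited4, a transcriptional coregulator, was called at -1.65 and 1.61.

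Scd1 and Retn were the members of this class from the lipid synthesis and mature adipocyte lists. Scd1, the stearoyl-CoA desaturase that makes monounsaturated fatty acids (chromosome 19, 44394450 to 44407709), measured 26258, 21777, 17941, 23630 and 26864 CPM in the 60 h controls and 45152, 53528, 28634, 44643 and 40545 CPM with estrogen. It measured 21942, 19450, 32372, 27207 and 22949 CPM in the 108 h controls and 10061, 10198, 10773, 11025 and 11999 CPM with CLA. Each estrogen library lay above all its controls and each CLA library below all of its own. The changes were -1.20 ± 0.16 with CLA and 0.87 ± 0.16 with estrogen (adjusted p 5.36e-06 and 0.00719), and both calls held in all 20 fits without a library and at -1.47 and 0.88 without the libraries high in skin and hair genes. Retn, which encodes the adipocyte hormone resistin (chromosome 8, 3655770 to 3659818), changed by -1.01 ± 0.14 and 0.59 ± 0.14. Its range was 425 to 514 CPM in the 60 h controls, 533 to 902 CPM with estrogen, 433 to 564 CPM in the 108 h controls and 194 to 357 CPM with CLA, so neither pair overlapped.

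**Figure D2:**
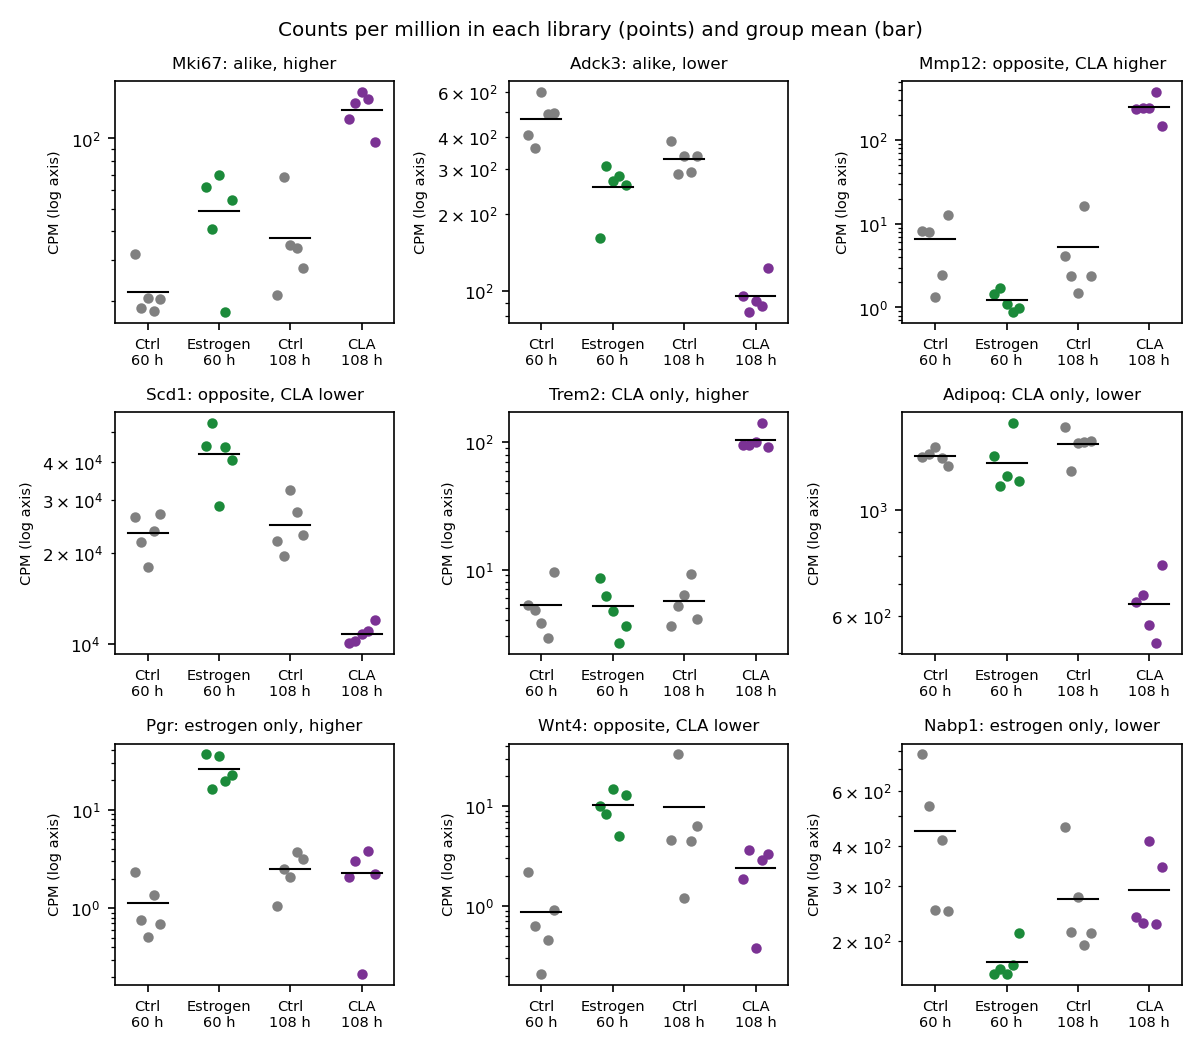
Level of 9 genes in each of the 20 libraries, in CPM on a log axis, with points for libraries and a bar at the group mean, for 60 h controls, estrogen, 108 h controls and CLA. Mki67 was higher and Adck3 lower with both agents, Mmp12 and Scd1 moved in opposite ways, Trem2 and Adipoq moved with CLA, and Pgr and Nabp1 with estrogen; the Wnt4 value of 32.9 CPM is control replicate 2 at 108 h.

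Genes of macrophages, lysosomes and stress responses were prominent among those that rose with CLA only. Over all genes tested 24.9% rose and 23.0% fell with CLA, 2.42% fell with estrogen, and 32.1% were called for the difference. In the macrophage list 13 of 17 members rose with CLA, and the medians were 1.18 with CLA and 0.05 with estrogen. In the list of genes of lipid-associated macrophages, the cells that take up lipid in fat tissue, 14 of 18 rose with CLA and 2 fell with estrogen, with medians of 1.83 and 0.03. Of 24 lysosome and proton pump genes 22 rose with CLA and 1 fell with estrogen, and the difference was called in 21. Of 13 dendritic cell and MHC class II genes 8 rose and 1 fell with CLA, at a median of 1.32 against -0.24 with estrogen. The macrophage count with CLA was 8 without the libraries high in skin and hair genes, at a median of 0.96.

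Trem2, the lipid receptor that defines lipid-associated macrophages (chromosome 17, 48346401 to 48352276), measured 5.28, 4.79, 3.81, 2.89 and 9.54 CPM in the 60 h controls and 8.65, 6.19, 4.74, 2.65 and 3.63 CPM with estrogen. It measured 3.63, 5.14, 6.32, 9.28 and 4.10 CPM in the 108 h controls and 95.8, 95, 101, 141 and 92.1 CPM with CLA. The lowest CLA library was many times above the highest control, while estrogen libraries lay within the range of the controls but for replicate 4, which was just under it. The change was 4.2 ± 0.35 with CLA (adjusted p = 4.19e-08) and -0.03 with estrogen, with a 95% confidence interval of -0.74 to 0.68. Cd68, a lysosomal glycoprotein of macrophages, rose by 2.85 ± 0.21 with CLA against -0.10 ± 0.20 with estrogen, Adgre1, the F4/80 antigen, by 2.11 ± 0.34 against 0.05 ± 0.33, and Lipa, the lysosomal acid lipase, by 1.88 ± 0.13 against -0.23 ± 0.13.

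Within the class higher with CLA only, the 5 genes that the naming rule gave by size of the difference were Tm4sf19, Rgs1, Dcstamp, Atp6v0d2 and Il1rn. Dcstamp and Atp6v0d2, a fusion receptor and a proton pump subunit known from osteoclasts and multinucleate macrophages, rose by 5.14 ± 0.53 and 5.53 ± 0.44. Rgs1, a brake on chemokine receptors, rose by 5.68 ± 0.58, Il1rn, the interleukin 1 receptor antagonist, by 4.29 ± 0.49, and Tm4sf19 by 6.05 ± 0.53. Their estrogen changes lay between -2.10 and -1.16 and none was called. Il7r, the interleukin 7 receptor, rose by 4.12 ± 0.36 against -0.64 ± 0.36. It was 1 of 5 of the 13 T and natural killer cell genes that rose with CLA, beside 24.9% of all genes tested. All 5 had a called difference, and the other 8 were called for neither agent.

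Stress response genes rose with CLA as well. In the list of the integrated and endoplasmic reticulum stress response 15 of 24 genes rose and 2 fell with CLA, against 1 that rose with estrogen. The shares over all genes tested were 24.9% and 23.0% with CLA and 4.07% with estrogen. Atf3, a transcription factor that stress induces (chromosome 1, 191170296 to 191183333), measured 7.11, 7.62, 4.43, 3.72 and 6.31 CPM in the 60 h controls, 5.31, 4.97, 3.11, 6.37 and 3.83 CPM with estrogen, 3.81, 6.23, 4.56, 11.0 and 6.33 CPM in the 108 h controls, and 79.7, 96.6, 102, 110 and 74.9 CPM with CLA. The CLA libraries alone stood apart. The changes were 3.85 ± 0.27 and -0.31 ± 0.27 (adjusted p 6.47e-09 and 0.541). Of 21 antioxidant genes under the transcription factor NRF2, 11 rose and 4 fell with CLA and 1 rose with estrogen. Srxn1, which repairs oxidised peroxiredoxins, rose by 2.33 ± 0.11 against 0.09 ± 0.10, and Hmox1, the heme oxygenase, by 1.47 ± 0.36 against -0.44 ± 0.35.

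Fgf21, a hormone of metabolic stress (chromosome 7, 45613890 to 45615490), measured 1.10, 0.200, 0.298, 0.870 and 1.33 CPM in the 60 h controls, 0.334, 0.304, 0.143, 0.221 and 0.411 CPM with estrogen, 0.208, 0.192, 0.228, 0.313 and 0.144 CPM in the 108 h controls, and 2.93, 4.75, 5.6, 2.58 and 3.88 CPM with CLA. Only the CLA libraries exceeded the range of the rest. It rose by 4.15 ± 0.43 with CLA, and its estrogen change of -1.43 ± 0.43 was not called. The promoters of Fgf21 and Trem2 are shown as examples of genes of this class, the first because the stress factor ATF4 is known to act on Fgf21 through an element of the letters TGATGNAAT, the second because it holds the AP-1 letters. Capitals mark those letters in the 150 bases before each start (RefSeq, GRCm38.p6): Fgf21 on the minus strand, chr7:45615491-45615640, with the element read on the opposite strand and its first base 140 bases before the start, and Trem2 on the plus strand, chr17:48346251-48346400, with the site 9 bases before it.
Fgf21: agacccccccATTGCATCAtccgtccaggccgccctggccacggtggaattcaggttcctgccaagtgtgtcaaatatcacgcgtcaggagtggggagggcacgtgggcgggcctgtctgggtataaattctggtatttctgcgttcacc
Trem2: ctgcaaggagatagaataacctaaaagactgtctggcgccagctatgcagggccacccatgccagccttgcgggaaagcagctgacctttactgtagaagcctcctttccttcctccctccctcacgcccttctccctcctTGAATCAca
The letters TGATGNAAT occur on either strand in 0.554% of the 32851 promoters. These are descriptions of sequence, and a promoter of a given class was not compared with the rest, since 71.1% of genes tested had a promoter sequence in the table.

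Among genes that fell with CLA only, adipocytes, lipid synthesis and vessels stood out. In the mature adipocyte list 18 of 20 genes fell with CLA, with a median of -0.74, and 1 rose with estrogen, with a median of -0.01 that became 0.02 with upper-quartile scaling. Among all genes tested 23.0% fell with CLA and 4.07% rose with estrogen. Adipoq, the adipocyte hormone adiponectin (chromosome 16, 23146536 to 23157968), measured 1236 to 1357 CPM in the 60 h controls, 1124 to 1518 CPM with estrogen and 1206 to 1495 CPM in the 108 h controls. With CLA it measured 640, 662, 574, 526 and 768 CPM, below every other library. It changed by -1.11 ± 0.10 with CLA (adjusted p = 3.03e-08) and by -0.05 ± 0.10 with estrogen, with a 95% confidence interval of -0.24 to 0.15. Cfd, the complement protease adipsin that adipocytes secrete, fell by 1.75 on the log2 scale, and Slc2a4, the insulin-responsive glucose transporter GLUT4, by 1.51, with estrogen changes of -0.24 and -0.15.

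Of 23 fatty acid and triglyceride synthesis genes 18 fell with CLA and the difference was called in 13, all with the lower response to CLA. Beside these stand 23.0% and 14.9% of all genes tested. With estrogen 2 rose and 1 fell, beside 4.07% and 2.42% of all genes. Acaca and Fasn, the enzymes that make malonyl-CoA and then palmitate from it, fell by 1.72 and 1.59 with CLA, and Elovl6, which lengthens palmitate, fell by 1.93; their estrogen changes were 0.31, 0.39 and 0.45. Fasn ranged from 9733 to 22878 CPM in the 60 h controls, from 13040 to 30619 CPM with estrogen, from 9879 to 16257 CPM in the 108 h controls and from 2765 to 6330 CPM with CLA.

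Endothelial genes fell with CLA in 18 of 21 and rose in 1, at a median of -0.55, and 2 fell with estrogen, at a median of -0.19. Among all genes tested 23.0% fell and 24.9% rose with CLA, and 2.42% fell with estrogen. Cdh5, the cadherin of endothelial junctions (chromosome 8, 104101613 to 104144504), measured 546, 553, 546, 588 and 482 CPM in the 60 h controls and 466, 420, 455, 459 and 474 CPM with estrogen. It measured 457, 393, 544, 471 and 513 CPM in the 108 h controls and 224, 232, 266, 235 and 294 CPM with CLA. Neither pair overlapped, although the estrogen change of -0.26 ± 0.08 missed the threshold (adjusted p = 0.0730) beside -0.93 ± 0.09 for CLA, and the difference was called. Pericyte and smooth muscle genes fell with CLA in 8 of 12, among them Rgs5, a pericyte marker, at -1.02 ± 0.08 against -0.17 ± 0.08. Oxidative phosphorylation genes fell with CLA in 22 of 23, and in 18 of these the difference from estrogen was not called.

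Hair keratin genes had the largest differences of all genes named on the side of lower with CLA only. Krt35 (chromosome 11, 100092192 to 100096224) measured 15.7, 145, 0, 0.114 and 10.8 CPM in the 108 h controls and 0, 0.715, 0.0804, 0.0339 and 0.199 CPM with CLA. It measured 0.641, 0.0333, 0.0595, 0.0696 and 0 CPM in the 60 h controls and 0.1, 0, 0, 0 and 30.5 CPM with estrogen. Only the 4 libraries high in skin and hair genes exceeded 1 CPM. Without these libraries the fitted CLA changes of Krt35, Krt81, Krtap8-1, Krtap11-1 and Krt83 turned from between -7.40 and -6.37 to between 0.50 and 2.36, and the 18 CLA calls and 19 difference calls of the skin and hair list were lost. That fit kept only 2 controls at 108 h, both from the same run of title numbers, and the part of this in the lost calls was not tested. Of the 50 genes called opposite with CLA lower, 19 kept that class without these libraries, as did 1710 of 2567 genes higher with CLA only and 94 of 235 higher with estrogen only. Of the 41 called opposite with CLA higher 7 kept theirs, as did 109 of 300 genes alike and higher and 63 of 200 alike and lower.

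**Figure D3:**
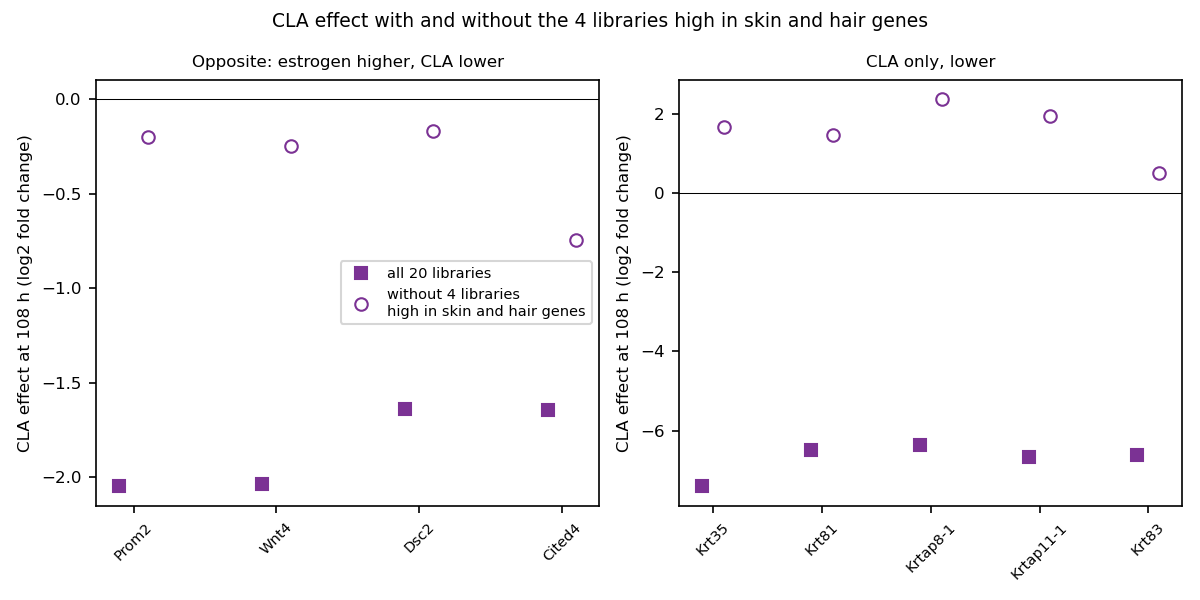
CLA effect (log2 fold change on the vertical axis) of 4 epithelial and 5 hair keratin genes fitted with all 20 libraries (filled squares) and again without the 4 libraries high in skin and hair genes (open circles). Prom2 goes from -2.05 to -0.20 and Wnt4 from -2.04 to -0.25, and the 5 keratin genes change sign.

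Among the responses to estrogen only was that of Pgr, the progesterone receptor gene (chromosome 9, 8898900 to 8968611). It measured 2.35, 0.766, 0.506, 1.36 and 0.684 CPM in the 60 h controls and 36.3, 16.1, 34.7, 19.4 and 22.5 CPM with estrogen. It measured 1.04, 2.49, 2.05, 3.76 and 3.17 CPM in the 108 h controls and 2.06, 3.04, 0.215, 3.83 and 2.22 CPM with CLA. Estrogen libraries lay far above all the rest, and CLA libraries lay among their controls. The estrogen change was 4.50 ± 0.57 (adjusted p = 0.000689), the CLA change was -0.15 with a 95% confidence interval of -1.23 to 0.94, and the difference was -4.65 ± 0.75 (adjusted p = 0.000185).

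Areg, the epidermal growth factor receptor ligand amphiregulin (chromosome 5, 91139599 to 91148432), measured 0.0610, 0, 0, 0.0348 and 0.0326 CPM in the 60 h controls and 22.9, 7.10, 22.8, 4.22 and 13.0 CPM with estrogen. It measured 0.387, 1.92, 0.0326, 0.0854 and 0.324 CPM in the 108 h controls and 0.593, 1.32, 0.0268, 2.98 and 0.0663 CPM with CLA. The fitted changes of 8.88 with estrogen and 0.85 with CLA rest on controls near 0, so their size is loose. Without the 4 libraries high in skin and hair genes the difference, -8.04 with all libraries, was -4.98 and not called (adjusted p = 0.3). Among other growth factor genes, Erbb3, a receptor partner of this ligand family, was called for estrogen only at 1.28 ± 0.24, and Fgf10, a stromal signal for branching, for CLA only at 0.90 ± 0.15.

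Slc5a5, the iodide transporter of lactating mammary cells (chromosome 8, 70882885 to 70892785), measured 0.977, 0.399, 0.655, 0.835 and 0.456 CPM in the 60 h controls and 20.6, 7.81, 14.9, 2.67 and 4.18 CPM with estrogen. It measured 0.625, 3.07, 0.391, 0.456 and 0.468 CPM in the 108 h controls and 0.279, 0.786, 0.456, 0.373 and 0.431 CPM with CLA. Estrogen libraries lay above all their controls, and CLA libraries overlapped theirs. The changes were 3.91 ± 0.64 with estrogen and -1.10 ± 0.65 with CLA. Fam25c and Ggt1, the latter a gene of glutathione breakdown, rose by 4.01 ± 1.10 and 3.78 ± 0.78 with estrogen and measured -1.67 ± 0.89 and -1.37 ± 0.69 with CLA. Their controls differed as well, at means of 0.192 and 0.325 CPM at 60 h and 5.69 and 2.96 CPM at 108 h. Cyp3a57, a cytochrome P450 gene, rose by 5.33 ± 0.65 with estrogen, from 0.0893 to 0.522 CPM in controls to 5.76 to 14.4 CPM, against -0.12 ± 0.57 with CLA; it belongs to a family of close copies whose reads may be split between them. Ltf, the iron-binding milk protein lactoferrin and an estrogen target, rose by 2.60 ± 0.65 against 0.04 ± 0.61.

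Of the 235 genes higher with estrogen only 11 were on the luminal epithelial list. With estrogen 17 of 24 rose, at a median of 2.27, and the difference was called in 16, whereas with CLA 2 fell, at a median of -0.19. Over all genes tested 4.07% rose with estrogen, 14.9% had the more positive response to estrogen and 23.0% fell with CLA. Elf3 and Esrp1, a transcription factor and a splicing factor of epithelia, rose by 2.84 ± 0.70 and 2.62 ± 0.75 with estrogen and changed by -0.70 ± 0.57 and -1.35 ± 0.70 with CLA. These counts depended on single libraries. The estrogen count was 6 without control replicate 2 at 60 h, and the counts for estrogen and the difference were 6 and 3 without the libraries high in skin and hair genes, at medians of 2.22 and -2.15. The 2 sets of controls were unequal in these genes, since 4 of 5 controls at 60 h lay under all controls at 108 h. Of all 235 genes higher with estrogen only 74 were also called higher in controls at 108 h than at 60 h, beside 1.91% of all genes tested. Over all 235 the median difference between the controls was 1.12. The 60 h controls also set the estrogen effect, so choosing genes that rose with estrogen favours low values there, and this excess is in part built in. The part that the lower starting level at 60 h has in the difference was not tested.

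Of 20 known estrogen receptor target genes, 7 rose with estrogen, at a median of 0.44, beside 4.07% of all genes tested. With CLA 6 rose and 4 fell, at a median of -0.09, counts near the shares of 24.9% and 23.0% over all genes tested. By class, Pgr, Areg, Myb and Tfap2c rose with estrogen only, Ctsd, Fos, Myc and Susd3 with CLA only, and Ccnd1 and Cited1 with both. Greb1, a cofactor of the receptor, rose by 1.34 ± 0.35 with estrogen and measured 0.61 ± 0.35 with CLA, and these were not told apart. Nrip1 and Igfbp4, a corepressor and an IGF-binding protein gene, fell with CLA only, by 0.79 and 0.56. The receptor's own gene, Esr1, was called for neither agent, at -0.26 ± 0.11 with CLA and -0.28 ± 0.11 with estrogen. Myb, Tfap2c, Ctsd, Myc and Susd3 were chosen after their values were seen.

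Few genes fell with estrogen only, and 14 of the 69 kept that class without the libraries high in skin and hair genes. Nabp1, a single-stranded DNA-binding protein gene (chromosome 1, 51464968 to 51478475), measured 780, 537, 252, 418 and 249 CPM in the 60 h controls and 158, 163, 158, 168 and 213 CPM with estrogen. It measured 460, 215, 276, 195 and 213 CPM in the 108 h controls and 240, 229, 416, 227 and 344 CPM with CLA. The estrogen libraries lay below all their controls, which were themselves widely spread, and the CLA libraries overlapped theirs. The changes were -1.38 ± 0.30 with estrogen and 0.10 ± 0.30 with CLA (adjusted p 0.0167 and 0.813). Bhlhe40, a clock and stress repressor (chromosome 6, 108660629 to 108666925), fell by 1.51 on the log2 scale with estrogen, from 50.2 to 296 CPM in controls to 42.2 to 98.1 CPM, but its 108 h controls, at 28.4 to 62.5 CPM, were lower still by 2.13 than those at 60 h. Dusp4, a phosphatase that shuts off MAP kinases, fell by 1.12, Sp110, an interferon-induced nuclear body gene, by 0.84 and H2-T24, a nonclassical MHC class I gene, by 1.05; CLA changes of these 3 lay between 0.21 and 0.37.

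Genes called for 1 agent without a called difference show where these data do not separate CLA from estrogen. Krt8, a keratin of luminal cells (chromosome 15, 101996711 to 102004342), measured 9.43, 2.46, 0.268, 2.75 and 2.44 CPM in the 60 h controls and 36.5, 22.5, 50.5, 13.2 and 25.5 CPM with estrogen. It measured 5.35, 11.0, 7.75, 17.2 and 17.9 CPM in the 108 h controls and 19.1, 34.1, 2.25, 25.6 and 17.8 CPM with CLA. Estrogen libraries lay above their controls, while CLA libraries spread on both sides of theirs. Its changes of 3.09 ± 0.71 and 0.74 ± 0.65 differed by -2.35 ± 0.94, which was not called (adjusted p = 0.0649). Ucp1, the uncoupling protein of brown and beige fat, fell by 0.60 with CLA on the log2 scale and measured -0.15 ± 0.18 with estrogen.

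Interferon-response genes differed between the agents in their median, largely through 1 library. Their median log2 fold change was -1.45 with estrogen and 0.03 with CLA (-0.04 with upper-quartile scaling), and the median difference was 1.79. In 4 of 22 genes the difference was called, all with the more positive response to CLA, beside 17.2% of all genes tested. Without control replicate 2 at 60 h the medians of the estrogen effect and of the difference were -0.39 and 0.35, with 2 genes called for the difference. Oas1a, an antiviral sensor, was called for CLA only at 1.27 ± 0.50 against -1.49 ± 0.51 with estrogen. For 30 chemokine and cytokine genes the median difference of 1.80 became 0.88 without that library, and 12 in place of 14 had the called higher response to CLA.

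**Figure D4:**
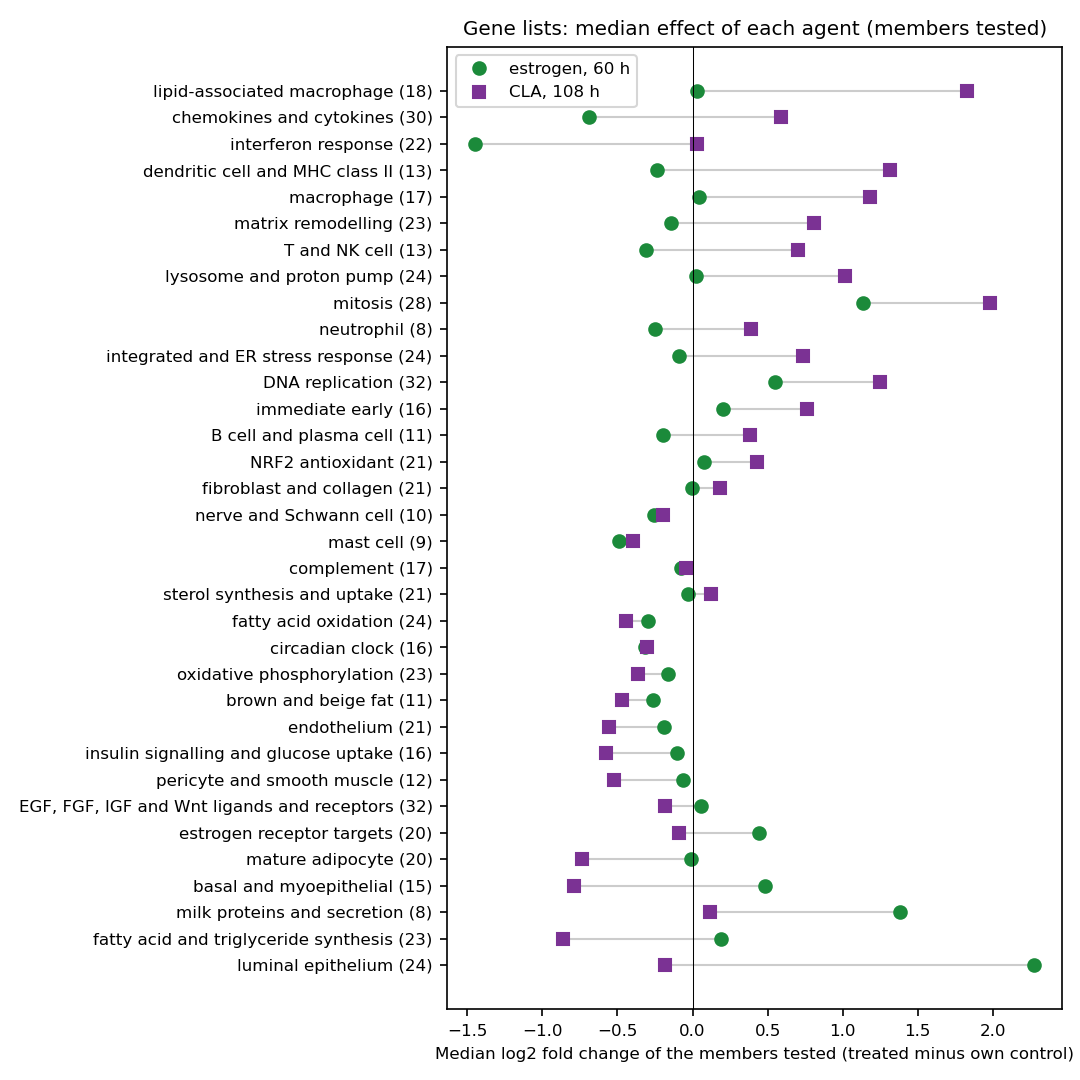
Median log2 fold change of each gene list with CLA and with estrogen, with skin and hair and skeletal muscle lists left out. Mitosis genes are high for both agents (1.98 and 1.13), luminal genes for estrogen (2.27 against -0.19), and lipid-associated macrophage genes for CLA (1.83 against 0.03), while mature adipocyte genes are low for CLA (-0.74 against -0.01).

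The same contrast in the 20 later libraries, estrogen at 84 h and CLA at 132 h with their own controls, shares no sample with the earlier one. Of 5507 early differences that could be tested there, 4024 were called with the same sign (38.0% of all genes were called for the later difference) and 3 with the opposite sign, and 97.6% had the same sign, against 80.4% of the 16936 genes tested in both. The later libraries are not free of the same feature: 3 controls at 132 h and 3 estrogen libraries at 84 h exceeded 1.5 log2 CPM in the skin and hair list, and no CLA library did. All estrogen libraries at 84 h also carried title numbers from the run without a control, so estrogen and that run cannot be told apart in either pair. Classes kept their members unevenly. CLA only was called again in 1872 of 2559 higher genes and 1496 of 2008 lower genes, against backgrounds of 16.5% and 16.6% in the later libraries. The alike class was called again in 156 of 300 higher genes (2.11% later) and in 35 of 200 lower genes (0.972% later).

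Opposite and estrogen-only classes were called again in smaller shares. CLA higher with estrogen lower was called again in 2 of 41 genes (0.338% later), and the reverse in 7 of 50 (0.320% later). Estrogen only was called again in 53 of 233 higher genes (0.605% later) and 1 of 68 lower genes (0.402% later). Mki67 was again higher with both agents, at 2.09 and 1.22, and Prom2 was again called opposite, at -2.12 and 3.44. The later fit kept the libraries high in skin and hair genes, and whether the later CLA change of Prom2 rests on them was not tested. Pgr was again called for estrogen only. Mmp12, Itgax, Gadd45a, Scd1 and Retn were called for CLA only, since their later estrogen changes of -1.80, -1.25, 0.00, 0.30 and 0.24 were not called. Bhlhe40 had a later difference of -1.71, opposite in sign to the early one of 1.45.

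**Figure D5:**
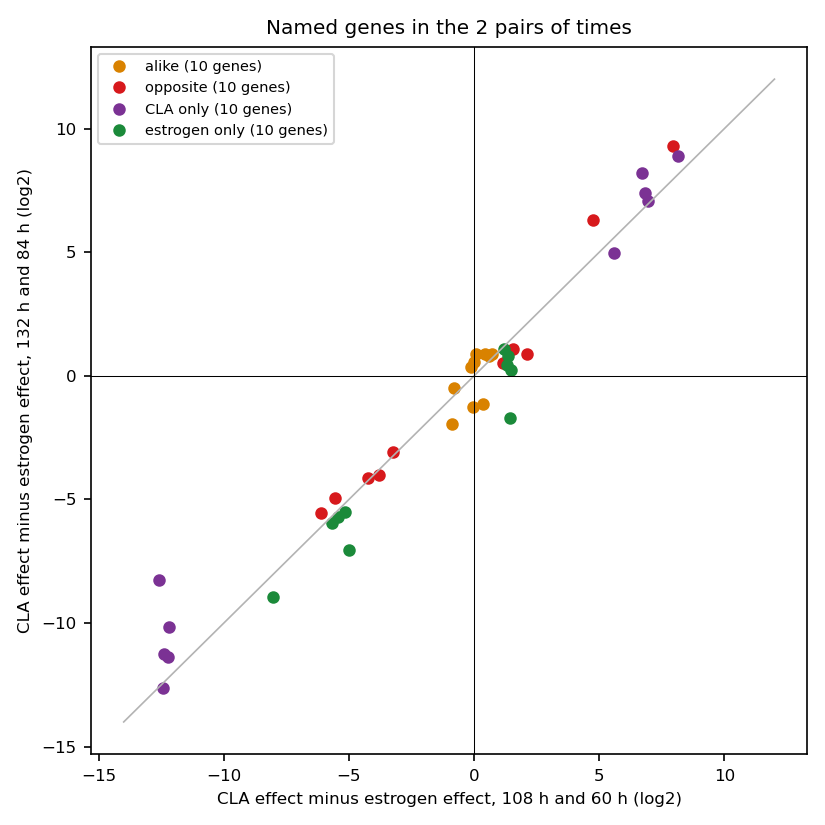
Difference between the CLA and estrogen effects (log2) in the earlier libraries, on the horizontal axis, and in the later libraries, on the vertical axis, for the 40 genes named by class, with a line of equality. Most points have the same sign in both, hair keratin genes lie at the lower left end, and Bhlhe40 lies on opposite sides of 0 (1.45 and -1.71).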

How the data were processed

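The authors deposited raw read counts per gene for the 20 earlier and the 20 later libraries, and RPKM values for the same libraries. Per the labels' protocols, poly(A) RNA with RQI (RNA quality) values of 7.5 to 9.4 (mean 8.7) was made into stranded libraries with 10 PCR cycles and run over 4 lanes. The genome build was GRCm38, per the submitters' processing notes. Which aligner and counter made the tables, on which gene model and with or without strand, is not given in the sources used here. Values of overlapping genes and of close copies are therefore uncertain. Counts and RPKM ranked genes alike within a library (Spearman 0.908 to 0.914), not identically.

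Counts were tested with edgeR 4.0.16 (R 4.3.3): filterByExpr with a minimum count of 10 and a minimum total of 15, TMM scaling, robust quasi-likelihood F tests on 4 groups that share 1 estimate of the spread, and Benjamini-Hochberg adjustment over all 17248 genes, at 0.05. The standard error of a change was taken from the change and its F statistic. The later libraries were fitted separately in the same way. Depth was 25976800 to 40026800 counts, and no 2 libraries were alike within sampling noise (lowest chi-square per gene 12.1 over 190 pairs). 19378 genes had no count. The procedure was tested on simulated data. The alternatives tried were DESeq2 1.42.0, RLE or upper-quartile scaling, other filters, limma 3.58.1 on log2(RPKM + 0.1) and log2(RPKM + 1), a threshold of 0.01, each library left out, the runs of title numbers, and the 4 libraries above 1.5 log2 CPM in skin and hair genes left out. Class and list counts without those 4, without the libraries low in luminal or high in interferon genes, and the split by control differences were added after seeing the data.

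The contrast and the 36 gene lists were chosen with earlier results of these data known. Genes named were, per class, the 5 with the largest changes among named genes of at least 1 log2 CPM on average whose 5 treated libraries all lay on the called side of their control mean, the 3 members of each list with the smallest p for the difference, and a panel of 20 genes. Others are said to be chosen after their values were seen, or are given as list members. Positions and promoters come from RefSeq tables of GRCm38.p6. Some genes that this rule names are not reported here.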

Additional observations from a re-analysis of the deposited data

Results flagged for a closer look

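In 232 groups of 5 libraries the gap between 1 library and the rest was set against the range of the group, and 27 groups held a library that stood apart; chance flags about 1 in 20 groups. Lists are given as mean log2 CPM. CLA replicate 3 was low in luminal epithelium (0.831), basal and myoepithelial (3.08) and milk protein genes (1.65), stood apart in sterol synthesis genes (5.69), and had the largest total of its group (35.7 M counts). CLA replicate 5 stood apart in matrix remodelling genes (5.38), CLA replicate 4 in Trem2 (141 CPM) and CLA replicate 2 in Krt35 (0.715 CPM).

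Control replicate 2 at 60 h stood apart in interferon response (6.78) and circadian clock genes (5.00). Control replicate 1 at 60 h was high in Mki67 (31.8 CPM), Krt8 (9.43 CPM) and Krt35 (0.641 CPM). Among controls at 108 h, replicate 2 was high in Wnt4 (32.9 CPM), Prom2 (27.6 CPM), Areg (1.92 CPM), Slc5a5 (3.07 CPM) and Krt35 (145 CPM), replicate 4 in Mmp12 (16.3 CPM), and replicate 3 stood apart in brown and beige fat genes (5.06). Estrogen replicate 5 was high in skin and hair (4.71) and skeletal muscle genes (3.21), in Krt35 (30.5 CPM) and in Nabp1 (213 CPM). Estrogen replicate 1 stood apart in oxidative phosphorylation genes (7.81) and in the share of mitochondrial counts (6.16%), and estrogen replicate 3 in antioxidant genes (5.30).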

How the results depend on the processing

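With RLE scaling, upper-quartile scaling and the stricter filter the counts for each effect and pooled class stayed within 1.5 times. By direction they did not: upper-quartile scaling gave 24 opposite with CLA higher in place of 41, 100 with CLA lower in place of 50, and 35 lower with estrogen only in place of 69. It changed the share of higher calls from 53.6% to 37.5% for the difference, from 52.0% to 42.3% for CLA and from 62.7% to 76.2% for estrogen. Of 294 named effects, DESeq2 kept all 294 calls and their directions, upper-quartile scaling 288, log2(RPKM + 0.1) 253, log2(RPKM + 1) 241 and the threshold of 0.01 209. Without the libraries high in skin and hair genes 214 were kept, 68 lost their call and 12 changed sign. The estrogen effect (1119 genes), the alike (500), opposite (91) and estrogen-only (304) classes moved most: without a filter they were 593, 270, 42 and 173, at a threshold of 0.01 they were 85, 27, 9 and 32, with DESeq2 1878, 841, 215 and 473, and with log2(RPKM + 1) 680, 319, 53 and 202. Without the 4 libraries high in skin and hair genes they were 513, 188, 34 and 139. The opposite class was 59 with log2(RPKM + 0.1). At 0.01 the difference was called in 3133 genes and CLA only in 2776, and within the run C of title numbers alone the CLA effect was called in 5255. Why these counts moved was not tested, apart from the fewer samples or the stricter threshold that some settings bring.

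Leaving out each library gave 316 to 1385 genes for estrogen, 136 to 650 alike, 30 to 105 opposite and 112 to 390 for estrogen only, against 5020 to 5918 for the difference, 7637 to 8489 for CLA and 4120 to 4907 for CLA only. The estrogen count was 650, 494 and 436 without control replicate 2, 3 or 4 at 60 h and 316, 709 and 448 without estrogen replicate 1, 2 or 5. For the alike class the values were 215 and 192 without control replicate 3 or 4 and 136, 319 and 199 without those estrogen replicates. For the opposite class they were 52 and 45 without control replicate 2 or 4 and 30, 54 and 42 without those estrogen replicates. Estrogen only gave 175, 150 and 141 without control replicate 2, 3 or 4 and 112 and 148 without estrogen replicate 1 or 5.

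Signs turned only without the 4 libraries high in skin and hair genes: the CLA effect became 1.66 for Krt35, 1.47 for Krt81, 2.36 for Krtap8-1, 1.95 for Krtap11-1, 0.50 for Krt83, 0.13 for Msx2 and 0.070 for Padi3, and the difference became 4.30, 3.46, 2.80, 3.15 and 0.74 for the first 5 of these. No paired analysis was possible because the labels give no replicate numbers that the groups share. Depth limits the genes near 0 in controls, such as Areg, whose fold change is loose.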

Other observations

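Of 9 mast cell genes 2 fell with both agents, while 23.0% of all genes tested fell with CLA, 2.42% with estrogen and 1.16% with both. These 2 were Cpa3, a mast cell protease, at -0.60 with each agent and Mrgprb1, a mast cell receptor, at -0.75 with CLA and -0.88 with estrogen (log2 fold changes). Hdc, the histamine-making enzyme, differed between the agents by 0.70 ± 0.25 without a call for either. The list's median difference, 0.08, was -0.01 with upper-quartile scaling. Complement genes divided: C3ar1 and C5ar1, receptors for complement fragments on myeloid cells, rose with CLA only by 2.45 ± 0.34 and 1.52 ± 0.24, and Cfd fell. Among matrix remodelling genes 15 of 23 rose and 4 fell with CLA and 3 fell with estrogen, beside 24.9%, 23.0% and 2.42% of all genes. Plau, the urokinase gene, rose with CLA only by 1.60 ± 0.12. Abcg1, a cholesterol exporter of macrophages and other cells, rose with CLA only by 2.14 ± 0.15, while 4 of 21 genes of the sterol list were higher and 4 lower with CLA, shares under the 24.9% and 23.0% of all genes. Of 16 clock genes 5 fell with CLA and 2 with estrogen, beside 23.0% and 2.42% of all genes, and Hlf, a clock output factor, fell with CLA only by 1.35 on the log2 scale. Clock genes also depend on the hour of sampling, which the labels do not give. Igf2 ranged from 16.4 to 26.4 CPM in the 108 h controls and from 10.6 to 14.7 CPM with CLA, without overlap, and from 19.8 to 24.2 CPM with estrogen against 20.9 to 25.1 CPM in its controls.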
